A study of Mus musculus with 8 samples.

Results

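The 10 genes described here are the mouse Smad genes with a locus of their own (Smad1, Smad2, Smad3, Smad4, Smad5, Smad6, Smad7 and Smad9) and the SKI family genes Ski and Skil, out of 21887 protein-coding loci on the GRCm38 map. Each was taken by its symbol, as the gene span with 10 kb added on either side, and every peak that overlapped this locus was counted. Chromatin came from whole cortex of mouse embryos at E15.5, and an antibody to methylated lysine 4 of histone H3 (H3K4me in the labels, sold for the monomethylated form) was used for ChIP-seq. The tested embryos (cKO, 2 libraries) carried Emx1Ires-Cre together with Prdm16flox/flox, and the controls (WT, 2 libraries) carried Prdm16 flox/flox alleles, with no Cre named in their labels, so the floxed alleles are common to both genotypes. Emx1 drives Cre in dorsal telencephalic progenitors and their descendants, so interneurons, microglia, vessels and other cells of a cortical lysate that arise elsewhere keep Prdm16. The labels do not say how many embryos went into a library, and the p-values then measure only the spread between these libraries, which may be technical.

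SMAD proteins carry signals of the TGF-beta superfamily into the nucleus. Receptors for BMPs phosphorylate SMAD1, SMAD5 and SMAD9, and receptors for TGF-beta and activin phosphorylate SMAD2 and SMAD3. These join the common partner SMAD4 and bind DNA, and the inhibitory SMAD6 and SMAD7, themselves targets of the pathway, shut the receptors off. SKI and SKIL (also called SnoN) are corepressors that bind SMAD complexes and recruit histone deacetylases, and in human cells PRDM16 has been found to bind SKI and SMAD3. In the developing cortex BMP and TGF-beta signals act on radial glia, the stem cells in which Prdm16 is expressed. Monomethylated H3K4 marks enhancers and the flanks of promoters, whether active or poised.

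Peaks were called by the authors in each library separately, between 66476 and 82683 per list. They covered 148 and 166 Mb in cKO replicates 1 and 2, against 130.3 and 114 Mb in WT replicates 1 and 2, so more of the genome was called in both cKO libraries. The lists hold no read counts, and the sequencing depth is unknown. Peaks lay over all 8 marker loci of cortical progenitors and neurons in every library and covered a median of 65.1% of the locus. Marker lists for other cells had lower medians: 3.92% for microglia, 7.15% for endothelium, 12.7% for meninges, 10.5% for erythroid cells and 2.38% for liver and muscle. Col3a1, Gata1, Alas2 and Alb were at 0 in all 4 libraries, but other loci of these lists were covered. The highest share was 25.8% for meninges, 21.4% for erythroid cells, 13.9% for endothelium, 11.6% for microglia and 6.02% for liver and muscle. The lowest cortical marker had 21.4%, and the median of all tested loci was 9.77%. Summed over its 4 loci, the endothelial list had 22.9 and 25.2 kb covered in cKO replicates 1 and 2, against 21.1 and 16.6 kb in WT. Both cKO libraries were likewise above both WT libraries for meninges (16.1 and 17.01 kb in cKO, 14.9 and 12.7 kb in WT) and for erythroid cells (11.5 and 12.2 kb in cKO, 8.996 and 8.04 kb in WT). The same was so for liver and muscle (4.99 and 3.15 kb in cKO, 2.6 and 1.27 kb in WT) and for the cortical list (159 and 166 kb in cKO, 155 and 146 kb in WT). The microglial list had 6.62 and 7.397 kb in cKO against 7.199 and 7.26 kb in WT. The part of such cells in the values below was not tested.

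All 10 loci held peaks in every library, and the share of the locus under peaks ranged widely within the family. Averaged over the 4 libraries, it was 67.6% ± 4.73 (SD, n = 4) for Smad7, 42.1% ± 6.53 for Ski, 36.1% ± 2.48 for Smad6 and 31.8% ± 3.59 for Smad1. Skil (20.8% ± 6.29), Smad5 (18.8% ± 4.80) and Smad3 (18.5% ± 3.00) lay in the middle, and Smad2 (11.8% ± 2.46), Smad9 (6.06% ± 1.58) and Smad4 (4.75% ± 1.40) were lowest. Both inhibitory Smads were thus among the most covered members, and the common Smad4 was the least. Across the 14941 loci with enough coverage to be tested, the median share was 10.5% and 12.02% in cKO replicates 1 and 2, against 9.01% and 7.52% in WT replicates 1 and 2. The medians of the 10 members were 22.6% and 24.8% in cKO, against 19.5% and 16.3% in WT. A share reflects how many cells carry the mark as well as how much each carries, and in whole tissue these cannot be told apart.

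**Figure D1:**
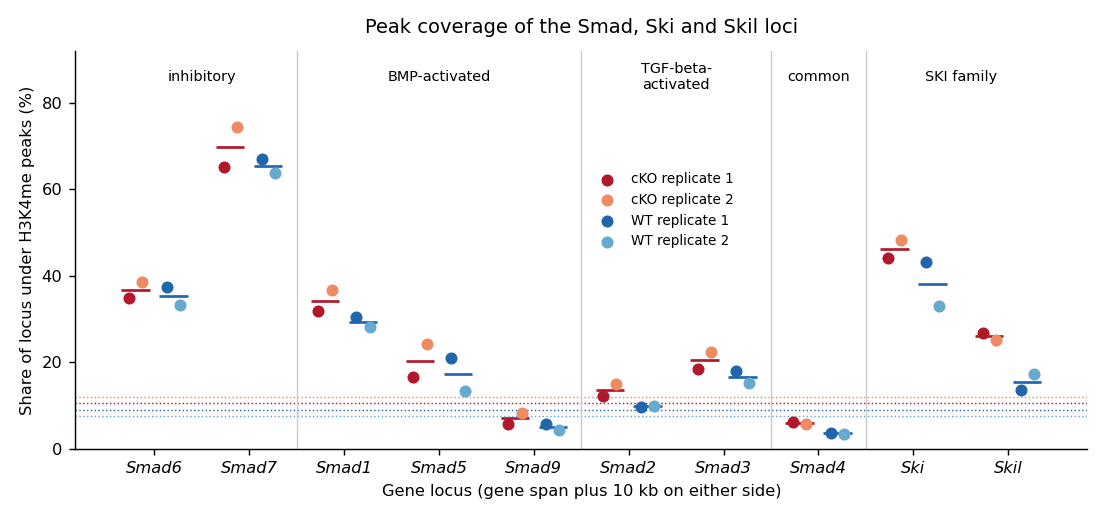
Share of each locus under H3K4me peaks in percent (y axis) for the 10 genes, grouped by role (x axis); points are libraries, short lines the mean of 2 libraries per genotype, and dotted lines the median of all tested loci in each library. Smad7 lies above 60% in every library, while Smad4 and Smad9 lie under the median of all tested loci in every library.

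Several steps in this order did not hold in every library. Smad7 exceeded Ski by 25.5 ± 4.21 percentage points (SD, n = 4 libraries), Smad1 exceeded Skil by 11.1 ± 4.80, and Smad3 exceeded Smad2 by 6.75 ± 1.36, in 4 of 4 libraries each. Smad6 exceeded Smad1 by 4.23 ± 2.23 and Smad2 exceeded Smad9 by 5.72 ± 1.28, also in 4 of 4. Ski was above Smad6 in 3 of 4 libraries, Skil above Smad5 in 3 and Smad9 above Smad4 in 3. Smad5 and Smad3 were in that order in 2 of 4 libraries and differed by 0.31 points, far less than the spread of 2.52. These orders describe the libraries, and no test was made across genes. Shares were most like those of Smad7 at Irf2bp2, Macrod1 and Thtpa, with distances over the 4 libraries of 2.77, 3.65 and 4.84 percentage points.

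Smad7 (chromosome 18, 75367365 to 75395935), an inhibitor that takes ubiquitin ligases to the activated receptors, was almost wholly under one broad peak. That peak was 26.7 and 29.9 kb wide in cKO replicates 1 and 2, against 29.9 and 26.9 kb in WT replicates 1 and 2. It covered 91.7% and 93.2% of the gene span in cKO and 92.7% and 92.4% in WT, and the genotypes overlapped. In kilobases, 31.6 and 36.2 of the 48.6 kb locus were covered in cKO and 32.5 and 31.03 in WT. The stretch common to all 4 libraries ran without a gap for 26.7 kb (75369740 to 75396395). In the flanks, 27.2% and 47.7% of the bases were covered in cKO and 30.2% and 23.1% in WT.

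Smad6 (chromosome 9, 63953076 to 64022085), the inhibitor that acts mainly on BMP signals, carried 8 and 9 peaks in cKO replicates 1 and 2 and 8 and 8 in WT. These covered 31.1 and 34.4 kb of the 89.01 kb locus in cKO and 33.4 and 29.5 kb in WT, with overlap between the genotypes. The gene's longest stretch covered in all 4 libraries, 7.20 kb, spans its start (64016210 to 64023409). Its strongest peak by the authors' −log10 q lay elsewhere, near the far end of the gene, at 63957960 to 63963163 in cKO replicate 2. The authors' fold enrichment of that peak was 7.84 and 6.97 in cKO replicates 1 and 2, and 7.84 and 5.85 in WT replicates 1 and 2. In each list under 1% of all peaks had a higher −log10 q.

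Ski (chromosome 4, 155154075 to 155222535) lies 517 kb from the deleted gene Prdm16 on the same chromosome. It had 12 and 12 peaks in cKO and 10 and 11 in WT, the most of the family in every library but cKO replicate 2, where Smad3 had 13. Peaks covered 39.01 and 42.7 kb of its 88.5 kb locus in cKO replicates 1 and 2, against 38.3 and 29.1 kb in WT. WT replicate 2 stood below the other 3 libraries. The longest stretch common to all 4 libraries was 9.84 kb (155211781 to 155221616), within the gene near its start. The strongest peak was in the gene body in 3 libraries (155169076 to 155174942 in cKO replicate 1), where the authors' fold enrichment was 7.60 in cKO replicate 1, and 7.59 and 6.33 in WT replicates 1 and 2. In cKO replicate 2 it was instead a peak at the edge of the locus (155143376 to 155145381; fold 7.32) that overlaps the neighbouring gene Morn1.

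**Figure D2:**
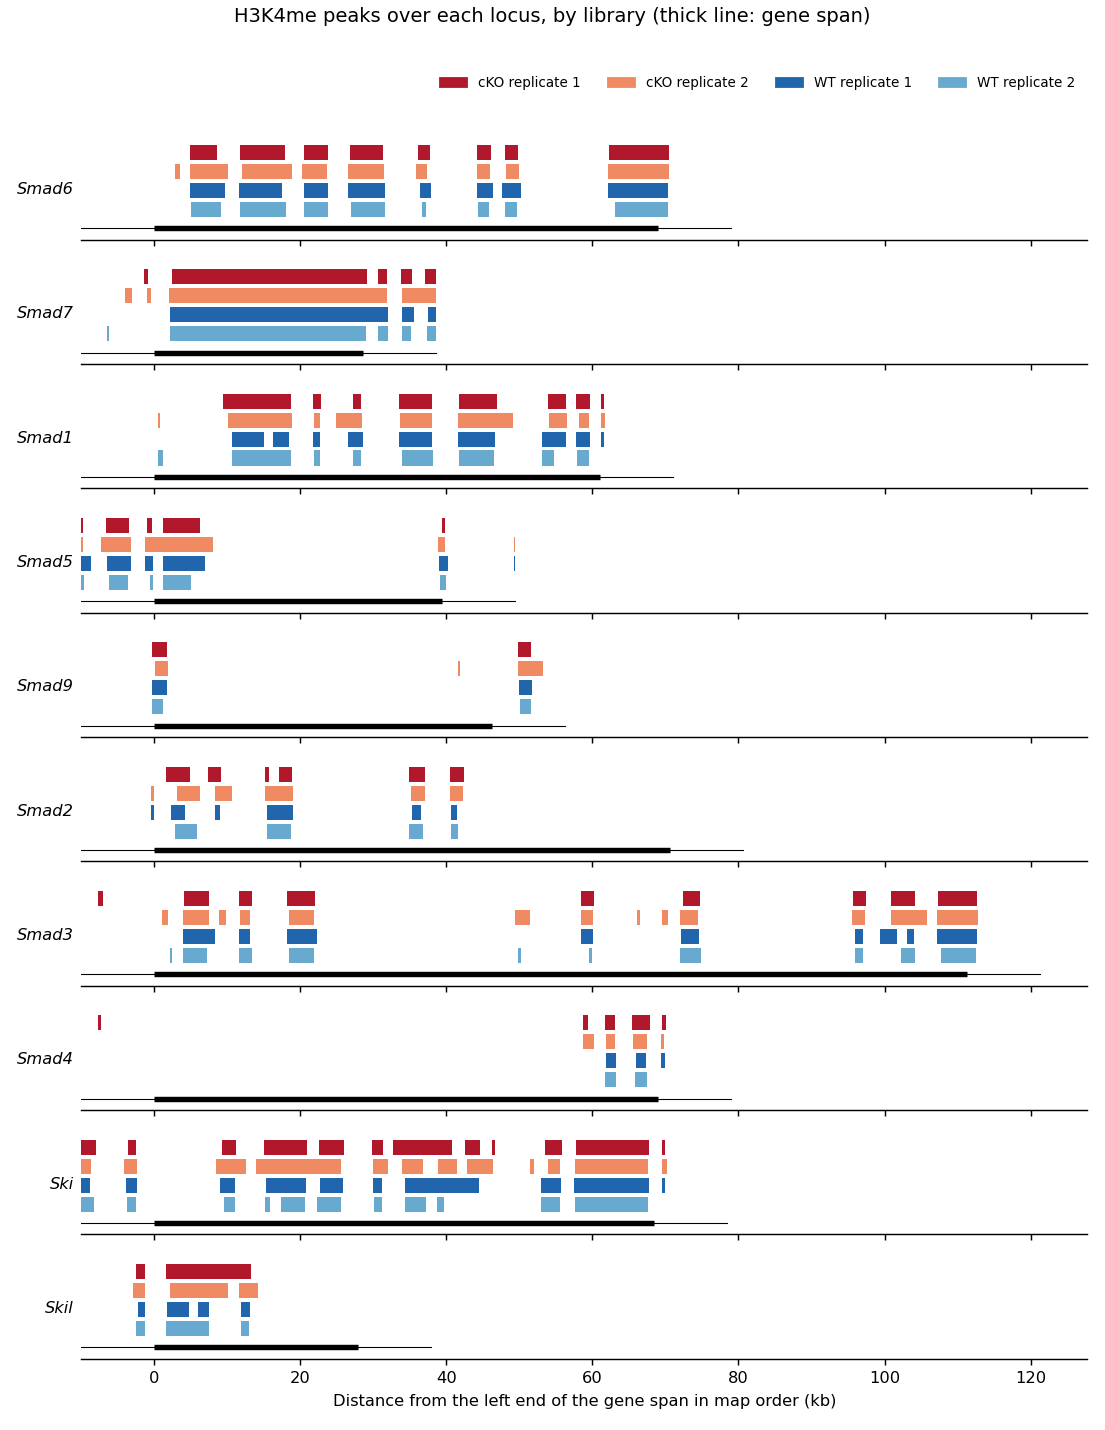
Peaks of each library (coloured bars) along the 10 loci; the x axis is the distance from the left end of the gene span in kb, the thick black line is the gene span and the thin line its flanks of 10 kb. Most of the Smad7 gene span lies under 1 unbroken peak in every library, and at Skil the cKO peaks cover a stretch of 2494 bp that is bare in both WT libraries.

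Of the SMADs activated by BMP receptors, Smad1 (chromosome 8, 79338395 to 79399428) was the most covered. Its 81.03 kb locus held 25.9 and 29.7 kb of peaks in cKO replicates 1 and 2, against 24.8 and 22.8 kb in WT. Nearly all of this was inside the gene, where 41.8% and 47.8% of the bases were covered in cKO and 40.03% and 37.3% in WT. The flanks had 1.78% and 2.59% in cKO, and 1.77% and none in WT. Smad5 (chromosome 13, 56703010 to 56742378) had 9.81 and 14.4 kb of 59.4 kb covered in cKO and 12.5 and 7.99 kb in WT, so the replicates of each genotype differed more than the genotypes did. Its covered bases gathered around the start and before it, and the flanks of both sides were covered over 23.5% and 30% in cKO and 32.5% and 19.4% in WT. Smad9 (chromosome 3, 54755455 to 54801662) had only 3.83 and 5.46 kb of 66.2 kb covered in cKO and 3.81 and 2.95 kb in WT. A large part of that belongs to a peak beyond the gene that lies in the neighbouring Rfxap, with 1.76 and 2.52 kb in cKO and 1.77 and 1.41 kb in WT.

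Of the SMADs activated by TGF-beta and activin receptors, Smad3 (chromosome 9, 63646766 to 63757994) has the longest gene of the 10, at 111 kb, and carried 9 and 13 peaks in cKO and 9 and 10 in WT. Peaks covered 24.2 and 29.5 kb of its 131 kb locus in cKO replicates 1 and 2, against 23.6 and 19.97 kb in WT, and the value of WT replicate 1 lay close to that of cKO replicate 1. The strongest Smad3 peak was intragenic in every library (63658379 to 63660123 in cKO replicate 1). Smad2 (chromosome 18, 76241090 to 76311748) had 11.2 and 13.6 kb of 90.7 kb covered in cKO and 8.83 and 9.06 kb in WT. Its peaks were weak in WT, where 50.8% and 32.9% of the list had a higher −log10 q than its best peak, against 6.40% and 22.5% in cKO.

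Smad4 (chromosome 18, 73634790 to 73703791), on which both branches converge, was covered over 5.496 and 5.098 kb in cKO and 3.29 and 3.03 kb in WT, in a locus of 89.002 kb. Apart from 1 short peak in cKO replicate 1, they gathered within about 10 kb of the right-hand end of the gene span and just past it. Despite thin coverage, the best Smad4 peak was not weak in most libraries: the authors' largest fold enrichment in the locus was 5.83 and 6.17 in cKO and 6.18 and 4.37 in WT. A higher −log10 q was held by 6.80% and 3.35% of the list in cKO and by 3.99% and 22.2% in WT. Smad9, also thinly covered, had weaker best peaks, with 17.0% and 26.3% of the list higher in cKO and 45.6% and 49.9% in WT. Skil (chromosome 3, 31095058 to 31122923) had 12.8 and 12.1 kb of 47.9 kb covered in cKO replicates 1 and 2, and 6.56 and 8.28 kb in WT replicates 1 and 2. Its widest peak was 11.6 and 7.84 kb wide in cKO and 2.99 and 5.95 kb wide in WT. Skil and Smad4 had the highest ratios of mean covered bases, cKO over WT, each 1.68, where the median ratio over tested loci was 1.30.

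Most merged peaks in these loci were found in all 4 libraries. Merging the peaks of the 4 libraries gave 69 elements in the 10 loci, of which 48 held a peak in all 4 libraries, 4 in 3, 5 in 2 and 12 in 1. Elements found in all 4 had a median length of 3.50 kb, and the others 0.689 kb. Of the 12 found in 1 library, 8 came from cKO replicate 2, 2 from cKO replicate 1 and 2 from WT replicate 2. Of the 10, Smad7 had the largest part of its covered bases covered in all 4 libraries, 81.0%, followed by Smad6 with 74.3%. Smad2 had 30.8% and Smad4 39.3%. The same counts were not made over all loci, so they are not shown to set these genes apart. Members were more covered than most loci (median share 19.8%, against 9.77%), and the part of coverage in these counts was not tested.

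Gene starts could be placed for 6 members from a RefSeq promoter table (Smad1, Smad3, Smad5, Smad6, Smad9 and Ski). A peak lay over the start in all 4 libraries at Smad3, Smad6 and Smad9. By single library, a looser count, 36.4% and 40.6% of 17492 protein-coding starts were under a peak in cKO replicates 1 and 2. In WT replicates 1 and 2 the shares were 30.6% and 25.9%. The share of all starts under a peak in all 4 libraries was not counted. At Smad6 the peak over the start reached from 1.44 and 1.495 kb upstream to 6.69 and 6.91 kb downstream in cKO. In WT it reached from 1.35 and 1.41 kb upstream to 6.86 and 5.85 kb downstream. Smad1 and Ski showed the other layout, with no peak at the start in any library and the mark on its flanks. Downstream, the nearest Ski peak began 688 and 919 bp from the start in cKO and 781 and 862 bp in WT, and the nearest Smad1 peak 1366 and 1560 bp in cKO and 1390 and 1493 bp in WT. Upstream, both cKO libraries and WT replicate 1 had a small peak: at Ski it was 1094 and 1095 bp away in cKO and 1008 bp away in WT replicate 1, and at Smad1 192 and 146 bp away in cKO and 170 bp away in WT replicate 1. WT replicate 2 had none near: its next upstream peak was 10.8 kb away at Ski and 241 kb away at Smad1. At Smad5 the start was bare in cKO replicate 1 and in both WT libraries and covered in cKO replicate 2.

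**Figure D3:**
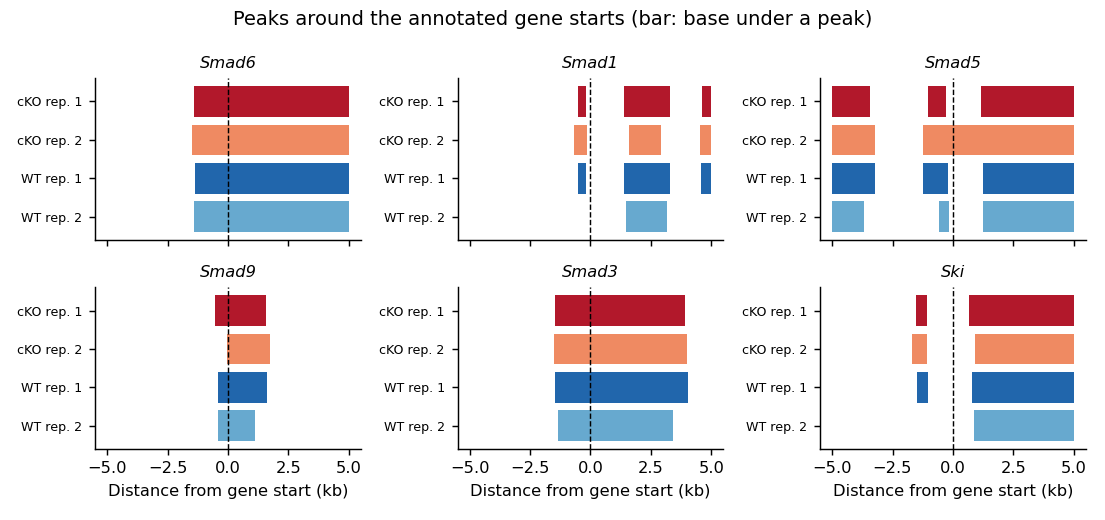
Bases under a peak (coloured bars, 1 row per library) by distance from the annotated gene start in kb, in the direction of transcription, for the 6 genes with a start in the table. The start is covered in all 4 libraries at Smad6, Smad9 and Smad3, and bare in all 4 at Smad1 and Ski.

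Promoter bases are shown for a pair of genes with each layout, Smad6 and Smad3 with a covered start and Ski and Smad1 with a bare one. They run 5′ to 3′ on the gene's strand from 250 bases upstream up to the start, or for Smad6 to the end of a motif that crosses it (RefSeq, GRCm38.p6, all on the minus strand, chr9:64022056-64022309, chr9:63757995-63758244, chr4:155222536-155222785 and chr8:79399429-79399678). Capitals mark GTCTAGAC, the palindromic SMAD binding element, in Smad6, and GGCGCC, a GC-rich element bound by BMP-activated SMADs, in Ski.
Smad6: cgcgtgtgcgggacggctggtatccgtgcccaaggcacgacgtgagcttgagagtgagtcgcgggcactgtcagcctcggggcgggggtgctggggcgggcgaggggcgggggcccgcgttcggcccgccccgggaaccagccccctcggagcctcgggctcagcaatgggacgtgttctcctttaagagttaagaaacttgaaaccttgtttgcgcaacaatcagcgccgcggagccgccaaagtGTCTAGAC
Smad3: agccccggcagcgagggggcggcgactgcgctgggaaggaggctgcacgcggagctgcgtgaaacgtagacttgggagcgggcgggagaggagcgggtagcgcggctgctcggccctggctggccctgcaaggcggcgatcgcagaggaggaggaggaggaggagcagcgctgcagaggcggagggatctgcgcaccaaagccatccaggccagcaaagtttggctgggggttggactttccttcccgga
Ski: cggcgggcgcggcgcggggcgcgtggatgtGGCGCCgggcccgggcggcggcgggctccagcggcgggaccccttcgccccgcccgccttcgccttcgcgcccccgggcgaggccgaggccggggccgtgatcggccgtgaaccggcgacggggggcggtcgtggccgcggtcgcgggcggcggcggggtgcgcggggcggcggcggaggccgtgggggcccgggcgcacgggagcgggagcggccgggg
Smad1: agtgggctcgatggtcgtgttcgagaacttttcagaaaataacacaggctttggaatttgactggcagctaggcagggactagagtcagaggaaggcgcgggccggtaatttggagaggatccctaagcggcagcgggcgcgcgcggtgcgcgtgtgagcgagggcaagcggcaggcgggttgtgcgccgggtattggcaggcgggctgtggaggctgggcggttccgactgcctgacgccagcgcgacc

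Over the full 300-base windows (250 before the start and 50 from it on), searched on both strands, GTCTAGAC was found in Smad6 and in none of the other 5, and in 0.212% of 17492 protein-coding promoters. In Smad6 it runs from base −4 to base 4, counted from the start as 1 with no 0. The shorter SMAD motif CAGAC, which GTCTAGAC does not contain, was in none of the 6 and in 48.8% of all promoters. GGCGCC was in Ski (−220 to −215), Smad9 (−51 to −46) and Smad5 (24 to 29), and in 15.4% of all promoters. All 6 promoters were richer in G and C than the median promoter (56.3%), from 63.0% in Smad5 to 85.3% in Ski. The bare starts had a ratio of observed to expected CG pairs of 1.12 in Ski and 1.06 in Smad1, the Smad5 start 1.05, and the covered starts 0.753 in Smad3, 0.762 in Smad9 and 0.952 in Smad6, against a median of 0.577 over all promoters. A match is a description of the letters in these windows and not a bound site.

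To ask whether loss of Prdm16 changed the mark over these genes, covered bases were compared between the genotypes at every locus. In plain covered bases, 7 of the 10 members had both cKO libraries above both WT libraries, namely Smad1, Smad2, Smad3, Smad4, Smad9, Ski and Skil, and none had both below. Of all tested loci, 59.8% had both cKO libraries above and 1.22% below, so the members' count is near that background. Since more of the genome was called in cKO, covered bases were put on a log2 scale, and the median locus of a library was set to 0. On this scale 6 members were lower and 4 higher in cKO, with a median difference of −0.09 against −0.04 over all tested loci, of which 55% were negative.

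No member passed the test. In limma, an adjusted p under 0.05 was reached at 0 of 14941 loci, 0% in either direction. An unadjusted p under 0.05 was reached at 5.56% of loci with cKO higher and at 4.44% with cKO lower, and among the members 0 were higher and 2 lower. Without WT replicate 1 limma called 119 loci higher and 5 lower, and 0 of them were members; WT is then 1 library, assumed to vary like the 2 of cKO. With all 4 libraries, the 2 members lower at an unadjusted p under 0.05 were the inhibitory Smads. Smad6 had a log2 difference, cKO minus WT, of −0.33 ± 0.093 (SE; limma adjusted p = 0.444), and Smad7 of −0.29 ± 0.099 (limma adjusted p = 0.474). Both were positive without centring (0.056 and 0.089), which raises every locus alike (the median of all tested loci was then 0.35), Smad7 also with lists cut to equal covered length (0.0076). Their covered bases overlapped between genotypes.

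Among the other members, Skil had the largest difference at 0.34 ± 0.20 (SE; limma adjusted p = 0.583) and Smad4 followed at 0.28 ± 0.21 (limma adjusted p = 0.654). Skil was positive in all 15 alternative settings, between 0.074 and 0.85, but its centred values overlapped: 1.27 and 1.02 in cKO replicates 1 and 2, against 0.55 and 1.07 in WT replicates 1 and 2. Smad1 stood at −0.17 ± 0.10, Smad5 at −0.14 ± 0.19, Ski at −0.098 ± 0.0997, Smad3 at −0.091 ± 0.11, Smad2 at 0.059 ± 0.15 and Smad9 at 0.013 ± 0.22, with limma adjusted p-values from 0.588 to 0.984. After centring, both cKO libraries were below both WT libraries at 4 members (Smad1, Smad3, Smad6 and Smad7), where 27.2% of tested loci were, and above at Smad4 alone, where 17.3% were.

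**Figure D4:**
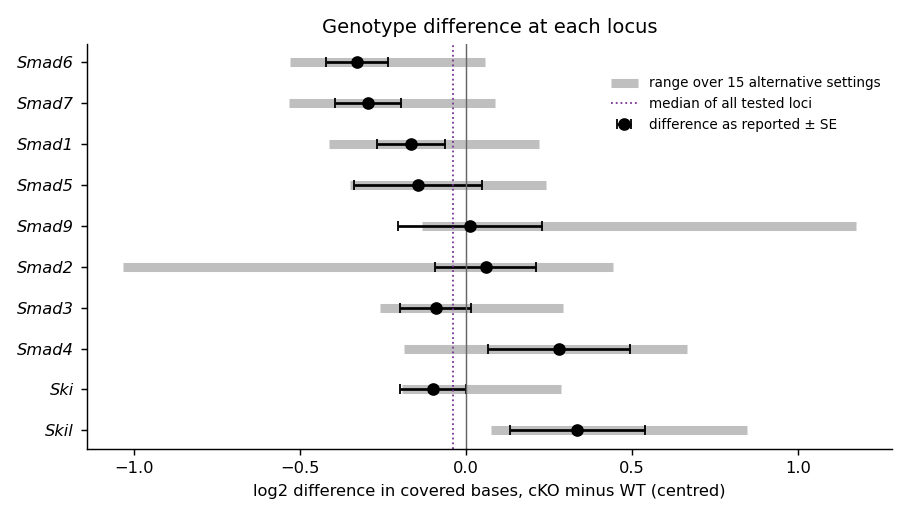
Log2 difference in covered bases, cKO minus WT, after centring (x axis) for each gene (y axis); points with bars are the difference ± SE from 2 libraries per genotype, grey bars the range over 15 alternative settings, and the dotted line the median of all tested loci. Every grey bar except that of Skil crosses 0.

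The sign of the centred difference went with how much of a locus was covered. Over all tested loci the median difference was 0.044 where under 10% of the locus was covered on average, −0.067 between 10% and 30%, and −0.18 at 30% or more, where 84.0% of 1264 loci were negative. Smad1, Smad6, Smad7 and Ski belong to the last class, and all 4 were negative. In the middle class, where 60.9% of loci were negative, Smad3 and Smad5 were negative and Smad2 and Skil positive, Skil with the largest difference of the family. Smad4 and Smad9 belong to the first and were positive. The part of coverage in the members' differences was not tested.

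**Figure D5:**
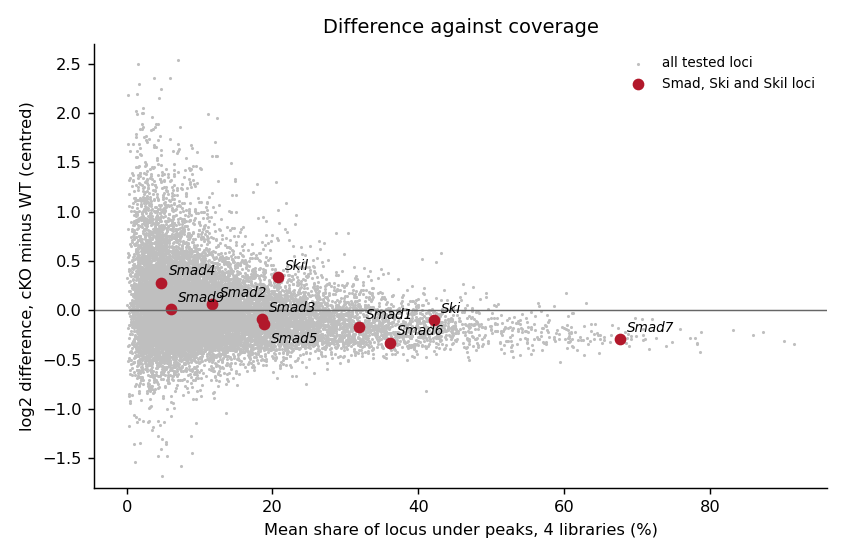
Centred log2 difference, cKO minus WT (y axis), against the mean share of the locus under peaks over 4 libraries in percent (x axis); grey points are the 14941 tested loci and red points the 10 genes. Loci at 30% or more have a median of −0.18, and Smad6 (−0.33), Smad7 (−0.29), Smad1 (−0.17) and Ski (−0.098) lie within that cloud.

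Around the gene starts (2 kb on either side) 0 of 8325 genes reached an adjusted p under 0.05 in limma, 0% in either direction. Unadjusted, 5.08% reached it with cKO higher and 6.47% with cKO lower. Of the 6 members with a start, 5 were covered enough to be tested. Smad3 had 3.48 and 3.52 kb of this window under peaks in cKO and 3.49 and 3.31 kb in WT, and Smad6 3.44 and 3.496 kb in cKO and 3.35 and 3.41 kb in WT. Their log2 differences of −0.32 ± 0.11 (SE; limma adjusted p = 0.415) and −0.32 ± 0.12 (limma adjusted p = 0.432) were 0.035 and 0.033 without centring. Smad5 (0.16 ± 0.30), Smad9 (−0.29 ± 0.21) and Ski (−0.13 ± 0.21) had limma adjusted p-values from 0.555 to 0.819. The difference was negative at 4 of the 5, where 62.1% of all tested starts were negative. After centring, both cKO libraries lay below both WT libraries at 3 of the 5 (Smad3, Smad6 and Smad9), where 38.7% of tested starts did. At Smad3 and Smad6 peaks filled most of the window in every library, so cKO had little room to rise. With 1 kb on either side these windows were full in every library. Both differences were then −0.18, which is the difference of the library medians alone. In plain bases both cKO libraries were above both WT libraries at Smad6, and the genotypes overlapped at Smad3 and Smad9.

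Regions present in 1 genotype alone were counted next. To count, 200 bp or more had to be under peaks in both libraries of a genotype, with no peak of the other genotype touching them. There was 1 cKO-only region in the 10 loci, in Smad4 (73693529 to 73694207, 679 bp), and 0 WT-only regions, out of 5591 and 581 in the whole series. The peaks that hold the cKO-only region covered 679 and 1489 bp in cKO replicates 1 and 2. Of the members, 1 of 10 had a cKO-only region, against 18.6% of tested loci, and none a WT-only region, against 2.18%. The count of cKO-only regions was 4 with stricter peaks (−log10 q of 3 or more) and 0 with lists cut to equal numbers of peaks or to equal covered length, and that of WT-only regions was 3 with equal covered length. With 1 library left out the members held 10 cKO-only regions without cKO replicate 1, 5 without cKO replicate 2, 6 without WT replicate 1 and 1 without WT replicate 2.

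Parts of peaks covered in both cKO libraries and bare in both WT libraries were more common, also where peaks of both genotypes overlap, and these were looked at after the lists had been seen. There were 16 such stretches of 200 bp or more in 9 member loci, all but Smad9, where 52.8% of tested loci held at least 1. The reverse, bare in cKO, occurred in Smad1 (814 bp) and Ski (561 bp), where 8.55% of tested loci held any. Stretches need covered bases, and the members were more covered than most loci. Their median share over the 4 libraries was 19.8%, against 9.77% for all tested loci. The part of coverage in these counts was not tested. Most cKO stretches were short, with a median of 319.5 bp against 420 bp in the series. Stretches at Smad2 (752 bp), Smad4 (679 bp), Smad3 (629 bp) and Smad1 (589 bp) were also longer than 420 bp. The longest was a stretch of 2494 bp inside Skil (31102598 to 31105091), which ranked 72 by length among 18934. It lies within an element of 12.6 kb (31096645 to 31109248), of which 11637 and 10454 bp were covered in cKO replicates 1 and 2, and 5574 and 7095 bp in WT. It was chosen for its length and is given as a description.

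Other genes of the pathway were read from 4 lists, and none of their loci passed the test (limma adjusted p of 0.407 or more). Of 12 tested TGF-beta and BMP receptors, 7 had a positive and 5 a negative difference, cKO minus WT, with a median of 0.093, with unadjusted p under 0.05 at 1 where cKO was higher and 0 where it was lower. The largest differences were at Acvr2a (0.89 ± 0.47, SE; limma adjusted p = 0.547) and Acvr2b (0.70 ± 0.27; 0.478), type II receptors for activins, and at Tgfbr1, the type I receptor for TGF-beta (0.43 ± 0.33; 0.654). Acvr2b had 14.4 and 17.7 kb covered in cKO and 11.0 and 4.74 kb in WT. Of 18 SMAD regulators 8 were positive and 10 negative, with a median of −0.058, and an unadjusted p under 0.05 was found at 1 with cKO higher and 3 with cKO lower. The largest difference was at Smurf1, a ubiquitin ligase that targets BMP-activated SMADs, with 20.3 and 24.6 kb in cKO against 12.8 and 6.73 kb in WT (0.83 ± 0.21; limma adjusted p = 0.412). Zfyve16 (0.75 ± 0.79) and Zfyve9 (0.72 ± 0.53), endosomal proteins that bring SMADs to receptors, were thinly covered and varied between replicates.

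Partner factors and corepressors of the SMADs, 25 tested, had 10 positive and 15 negative differences and a median of −0.023, with unadjusted p under 0.05 at 2 where cKO was higher and 1 where it was lower. Skor2, a SKI family corepressor, had 4.34 and 4.22 kb covered in cKO and 2.08 and 1.23 kb in WT (0.80 ± 0.27, SE; limma adjusted p = 0.474). Hdac1, a histone deacetylase, stood at 0.60 ± 0.33 and Mecom, the closest relative of Prdm16, at 0.43 ± 0.14 (limma adjusted p = 0.554 and 0.474). Of known SMAD target genes, all 13 tested had a negative difference after centring, 3 of them at an unadjusted p under 0.05, with a median of −0.27, where all tested loci had −0.04. Id4 (−0.58 ± 0.22), an inhibitor of bHLH factors, and the homeobox genes Msx1 (−0.48 ± 0.21) and Msx2 (−0.47 ± 0.31) led this list. Of all tested loci, 55% were negative and 4.44% lower at an unadjusted p under 0.05, and 60.9% were negative among loci covered over 10% to 30%, the class that holds the targets' median share. The targets were negative at 12 of 13 loci with cyclic loess (median −0.22), at 11 of 13 with equal numbers of peaks (−0.19) and at 11 of 13 with stricter peaks (−0.36), but at 4 of 12 with equal covered length (0.093). Leaving out centring adds the same amount to every locus: 3 of 13 targets were then negative, with a median of 0.12 against 0.35 over all tested loci. The targets had a median of 22.6% of the locus covered, and the receptors 11.2%. Bambi and Pmepa1 are on both the target list and the regulator list, so the counts of these lists can share loci.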

How the data were processed

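H3K4me ChIP-seq peak lists of 2 cKO and 2 WT libraries were used, and the 4 input samples were not analysed here. Per the labels' protocols, chromatin was native and cut with micrococcal nuclease. Per the submitters' processing notes, cutadapt, FastQC, Bowtie2 2.2.8 and MACS2 2.1.1 were run on mm10, with options not given in the sources used here. The deposited lists give, per peak, a score, a fold enrichment (a ratio) and p- and q-values as −log10, from the authors' caller; positions, fold and q were used. Deeper or better enriched libraries give more and wider peaks, which every measure here inherits.

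Peaks of the 19 autosomes and both sex chromosomes were intersected with RefSeq gene spans (GRCm38.p6, the assembly of mm10), using Python 3.11.15, numpy 2.4.6 and pandas 2.3.3; code was tested on simulated data. Covered bases per locus were taken as log2(bases + 500), where the added 500 understates changes at thin loci. Loci with a mean under 1000 were left out, and libraries were centred on their medians. limma 3.58.1 (R 4.3.3, eBayes with trend, Benjamini-Hochberg, threshold 0.05) compared cKO with WT over all loci. Exact permutation tests of 2 against 2 cannot go below 0.333 and were not used. Genes named are the 10 members, the 3 largest differences of each list and the 3 loci nearest to the most covered member. The members and lists were chosen with earlier results of these data known.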

Additional observations from a re-analysis of the deposited data

How the results depend on the processing

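No member passed limma's adjusted threshold in any of 15 alternatives for loci or 9 for gene starts. Without WT replicate 1, limma called 119 loci higher and 5 lower, with the lone WT library assumed to vary like cKO, and otherwise 0. The members' median difference of −0.09 was −0.021 with a pseudocount of 2000 bases, 0.29 without centring, −0.017 with cyclic loess, −0.22 with stricter peaks (−log10 q of 3 or more) and 0.11 with equal covered length, and from −0.14 to −4.4e-05 with 1 library left out. Without centring all 10 were positive, and the median of all tested loci was 0.35.

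Signs turned without centring at Smad1 (0.22), Smad3 (0.29), Smad5 (0.24), Smad6 (0.056), Smad7 (0.089) and Ski (0.29), and with equal covered length at Smad1 (0.066), Smad2 (−1.03), Smad3 (0.17), Smad5 (0.16) and Smad7 (0.0076). They also turned at Smad9 without the filter (−0.00067), at Smad4 with stricter peaks (−0.19), at Smad2 with equal numbers of peaks (−0.45) and with 25 kb flanks (−0.060), and without flanks at Smad5 (0.027) and Smad9 (−0.091). With 1 library left out, Smad2 ranged from −0.062 to 0.18, Smad5 from −0.35 to 0.060 and Smad9 from −0.13 to 0.16. The causes were not tested.

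At gene starts the members' median of −0.29 was −0.55 with stricter peaks and 0.068 without centring, where Smad3 (0.035), Smad6 (0.033), Smad9 (0.068) and Ski (0.22) turned. Smad5 turned with a 5 kb window (−0.14) and stricter peaks (−0.068), ranging from −0.20 to 0.53 with 1 library left out, and Smad9 with stricter peaks (0.496).

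The 1 cKO-only region became 4 with stricter peaks and 0 with equal numbers or equal length, and 1 to 10 with 1 library left out (10 without cKO replicate 1, 6 without WT replicate 1, 5 without cKO replicate 2). WT-only regions were 3 with equal length and 0 to 2 with 1 library left out (2 without WT replicate 1). Stretches added after seeing the data numbered 16 and 2. The members' median share, 23.2% in cKO and 16.9% in WT, was 31.1% and 20.5% without flanks; with 1 library left out it was 22.6% to 24.8% in cKO and 16.3% to 19.5% in WT.

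With the replicate number as a block, the members' median stayed −0.09 and limma called 0 loci. The labels do not say that a number marks a shared litter or day, and replicate differences of the genotypes correlated at −0.096 over 14941 loci. Unknown read depth limits all of these values.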
